A study of Mus musculus with 12 samples.

Results

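The endoplasmic reticulum (ER) chaperone and unfolded protein response (UPR) module is a list of 36 genes, matched by symbol among the 19434 genes of the count table. All 36 were found, and 34 passed the filter on low counts. They were chosen for their known roles in ER folding, ER-associated degradation and the XBP1, ATF6 and ATF4 branches of the response. The choice was made with earlier results of these data known. RNA was sequenced from CD4+ (helper) T lymphocytes sorted from lungs of male and female C57BL/6NJ mice 48 h after aspiration. The design asks how these cells respond to bacterial pneumonia at 2 ages. E. coli juveniles (JE) aspirated 2800000 colony-forming units of Escherichia coli on day 15 of life, and PBS juveniles (JP) aspirated phosphate-buffered saline on that day. E. coli neonates (NE) and PBS neonates (NP) aspirated the same bacterial dose or saline on day 5. Each group had 3 libraries, and each library came from a separate pool of 2 juvenile or 3 neonatal mice, so the spread is between pools and not between single animals. In sorted bulk RNA, fewer cells of a type and less RNA per cell cannot be told apart.

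The ER folds and modifies membrane and secreted proteins, and lymphocytes that begin to divide and secrete cytokines place a load on it. Unfolded protein activates 3 sensors, IRE1α (Ern1), ATF6 (Atf6) and PERK (Eif2ak3). IRE1α splices Xbp1 mRNA to encode an active factor, ATF6 is cleaved to release one, and PERK phosphorylates eIF2α, which favours translation of ATF4. XBP1 and ATF6 induce chaperones and degradation genes, while ATF4 induces amino acid genes and the stress factor CHOP (Ddit3). Counts per gene do not separate spliced from unspliced Xbp1 and show neither cleavage nor phosphorylation.

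The promoter elements that define the XBP1 and ATF6 targets are shown first, because the genes called in juveniles included several that carry them. RefSeq promoters (GRCm38.p6, the 250 bases before the RefSeq start) matched 31 of the 36 members, all but Atf6, Derl1, Sec61a1, Manf and Hyou1. The ER stress response element (ERSE, CCAAT and CCACG separated by any 9 bases, searched on both strands) joins a CCAAT box bound by NF-Y to a CCACG box bound by ATF6 or XBP1. It occurred in 9 of 31 members (29.0%), against 35 of 27025 genes with a promoter (0.13%), and members are among those 35. The members were chosen for known roles in this response, so these shares describe the choice and are not an enrichment found here. By role it was found in 6 of 9 luminal chaperones, 1 of 5 disulfide genes and 2 of 6 degradation genes. Each match is written with 5 bases on either side, in the motif's orientation, with its fixed letters in capitals.

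Hspa5: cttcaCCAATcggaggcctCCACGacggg
Hsp90b1, nearer the start: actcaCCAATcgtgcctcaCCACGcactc
Hsp90b1, farther from the start: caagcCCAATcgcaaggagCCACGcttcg
Calr: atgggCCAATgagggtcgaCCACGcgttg
Canx: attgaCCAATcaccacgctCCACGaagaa
Creld2: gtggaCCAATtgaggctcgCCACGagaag
Dnajc3: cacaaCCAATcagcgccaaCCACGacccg
Pdia6: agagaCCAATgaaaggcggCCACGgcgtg
Syvn1: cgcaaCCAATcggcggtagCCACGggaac
Derl3: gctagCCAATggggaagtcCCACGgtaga

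The Hspa5 element lies at chr2:34772025-34772043 on the plus strand. It is before the RefSeq start but inside the GENCODE span of the gene, chr2:34771970-34777547. The Hsp90b1 elements lie at chr10:86705533-86705551 (plus) and chr10:86705638-86705656 (minus), the Calr element at chr8:84847075-84847093 (plus) and the Canx element at chr11:50325800-50325818 (minus). The remaining elements lie at chr15:88819520-88819538 (minus, Creld2), chr14:118937827-118937845 (plus, Dnajc3), chr12:17266491-17266509 (plus, Pdia6), chr19:6046532-6046550 (plus, Syvn1) and chr10:75893242-75893260 (minus, Derl3). A match is a description of letters and not evidence that a factor was bound. Hsp90b1, Calr and Canx are shown in longer context, as upstream bases outside annotated exons in the orientation of the gene, with the element in capitals. These stretches are chr10:86705510-86705694 (Hsp90b1), chr8:84846935-84847181 (Calr) and chr11:50325674-50325923 (Canx), all on the minus strand.

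Hsp90b1: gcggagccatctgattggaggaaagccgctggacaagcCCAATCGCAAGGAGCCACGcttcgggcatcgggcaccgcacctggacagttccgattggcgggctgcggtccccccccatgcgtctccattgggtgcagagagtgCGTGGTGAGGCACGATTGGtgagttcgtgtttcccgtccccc
Calr: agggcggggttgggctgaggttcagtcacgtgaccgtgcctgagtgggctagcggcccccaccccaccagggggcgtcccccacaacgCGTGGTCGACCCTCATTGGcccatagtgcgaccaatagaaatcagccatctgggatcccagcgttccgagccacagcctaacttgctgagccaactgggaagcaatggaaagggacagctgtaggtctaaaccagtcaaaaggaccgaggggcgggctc
Canx: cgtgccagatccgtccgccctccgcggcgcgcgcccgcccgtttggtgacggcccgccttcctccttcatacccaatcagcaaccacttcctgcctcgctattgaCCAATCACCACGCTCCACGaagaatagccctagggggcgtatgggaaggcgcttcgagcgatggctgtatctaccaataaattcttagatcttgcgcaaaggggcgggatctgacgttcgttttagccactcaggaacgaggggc

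The shorter ERSE-II (ATTGG and CCACG separated by 1 base, both strands) occurred in 1 member, Herpud1, and in 10 of 27025 genes (0.037%). The element bound by ATF4 with C/EBP factors (CARE, TGATGNAA, both strands) occurred in Asns, Chac1 and Herpud1, which is 9.68% of the members with a promoter and 3.91% of all genes. The XBP1 element TGACGTGG (both strands) was not in any of the 31 windows and was in 0.603% of all genes. The ERSE-II of Herpud1 and the CARE of Asns and Herpud1 are shown because Herpud1 holds both kinds and Asns had the largest called change of the members.

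Herpud1, ERSE-II: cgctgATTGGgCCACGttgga
Asns, CARE: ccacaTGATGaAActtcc
Herpud1, CARE: cgggcTGATGcAAcccgc

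They lie at chr8:94386377-94386387 (plus), chr6:7693225-7693232 (minus) and chr8:94386317-94386324 (minus). The Asns element is before the RefSeq start but inside the GENCODE span of the gene, chr6:7675169-7693254.

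Libraries held 6035445 to 8129983 counts. Values are CPM, counts scaled to the summed count of the tested genes times the TMM scaling factor of the library. The floor of 3 counts was equal to 0.374 to 0.494 CPM. One juvenile library stood apart: PBS juvenile 2 had log2 correlations of 0.976 and 0.981 with the other PBS juveniles, against at least 0.987 in the other within-group pairs. Sums over 11 T cell identity genes were 5167 to 5566 CPM in E. coli juveniles, 6306 to 7023 in PBS juveniles, 5477 to 5795 in E. coli neonates and 5597 to 6291 in PBS neonates, with Cd4 at 6410 to 9323 counts and Cd3e at 8700 to 13592 counts per library. Sums over 15 mitosis and G2/M genes were 3646 to 5446 CPM in E. coli juveniles, 1507 to 2716 in PBS juveniles, 3397 to 3668 in E. coli neonates and 3593 to 4660.4 in PBS neonates, and over 15 monocyte and macrophage genes 887 to 1319 CPM in E. coli juveniles, 345 to 572 in PBS juveniles, 395 to 672 in E. coli neonates and 281 to 470.1 in PBS neonates. In juveniles 13 of 15 mitosis genes and 10 of 14 tested monocyte genes rose with E. coli and 1 monocyte gene fell, while 6 of 11 T cell identity genes fell. Over all genes 15.4% rose and 9.42% fell in that comparison.

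The 13 dendritic cell and MHC class II genes summed to 635 to 801 CPM in E. coli juveniles, 290.4 to 407 in PBS juveniles, 200.3 to 225 in E. coli neonates and 143 to 211 in PBS neonates. The 12 B cell genes summed to 86.3 to 113 CPM in E. coli juveniles, 64.9 to 84.9 in PBS juveniles, 60.2 to 85.3 in E. coli neonates and 42.9 to 54.6 in PBS neonates, and the 9 plasma cell genes to 85.1 to 109 CPM in E. coli juveniles, 60.2 to 67.6 in PBS juveniles, 64.6 to 71.3 in E. coli neonates and 58.7 to 69.6 in PBS neonates. Of the plasma cell markers, Tnfrsf17 had 0 or 1 count and Igj 0 to 6 counts per library, while 2 of 5 tested plasma cell genes, Txndc5 and Creb3l2, rose in juveniles with E. coli and were higher in juveniles than in neonates after E. coli, and Creb3l2 passed for the response difference. Both also belong to the wider ER lists described here. The 9 NK and innate lymphoid genes summed to 718 to 786 CPM in E. coli juveniles, 334 to 411 in PBS juveniles, 216 to 339.9 in E. coli neonates and 211 to 253 in PBS neonates, and the 12 lung epithelial genes to 92.8 to 208 CPM in E. coli juveniles, 36.8 to 44.7 in PBS juveniles, 65.5 to 179.5 in E. coli neonates and 50.1 to 89.8 in PBS neonates. The 12 neutrophil genes summed to 11.6 to 26.2 CPM in E. coli juveniles, 0.165 to 3.31 in PBS juveniles, 10.7 to 59.8 in E. coli neonates and 0.833 to 1.93 in PBS neonates, and 4 of 5 tested (S100a8, S100a9, Lcn2 and Cxcr2) rose with E. coli at both ages, while Elane, Mpo and Camp were at 0 in E. coli juveniles. The 10 endothelial genes summed to 234 to 254 CPM in E. coli juveniles, 240.1 to 263 in PBS juveniles, 256 to 305 in E. coli neonates and 283 to 327 in PBS neonates, with 5 of 8 tested raised and 2 lowered in juveniles by E. coli. The 10 immature T cell genes summed to 2229 to 2906 CPM in E. coli juveniles, 3076 to 3204 in PBS juveniles, 3192 to 4028 in E. coli neonates and 3255 to 3862 in PBS neonates, with 2 of 10 tested lowered in juveniles by E. coli. In the same juvenile comparison 8 of 13 dendritic cell and MHC class II genes, 3 of 6 tested NK genes, 2 of 8 tested epithelial genes and 2 of 12 B cell genes rose. Over all genes 15.4% rose and 9.42% fell in juveniles, and 1.05% rose in neonates. The B cell count is close to the share of all genes that rose in juveniles. The part of these marker levels in the members' changes was not tested.

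In juvenile cells, E. coli raised 11 of 34 tested members and lowered 0. The 11 were Hspa5, Hsp90b1, Calr, Canx, Dnajb11, Ero1l, Edem1, Ern1, Atf6, Xbp1 and Asns, with the largest change in Asns (log2 1.65). They are 32.4% of the members, against 15.4% of all 11062 genes raised and 9.42% lowered, 24.8% in all (edgeR quasi-likelihood test, adjusted p under 0.05). With upper-quartile in place of TMM scaling the split over all genes was 1468 raised and 1415 lowered, against 1705 and 1042 with TMM. At an unadjusted p under 0.05, 16 members were higher and 0 lower. DESeq2 called 12 up and 0 down, and limma voom called 20 up and 0 down. Over all 11062 genes DESeq2 called 1769 up and 1067 down, and limma voom 2531 up and 1949 down. The median log2 fold change was 0.22 over the members and -0.01 over all genes. In 14 members all 3 E. coli libraries lay above all 3 PBS libraries, as in 20.6% of all genes, and in 0 members they lay below, as in 16.3% of all genes. Without PBS juvenile 2, 16 members rose, and without that library and PBS neonate 1 together, 17 did. Over all genes, 1914 of 11290 and 1899 of 11264 rose in these fits.

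**Figure D1:**
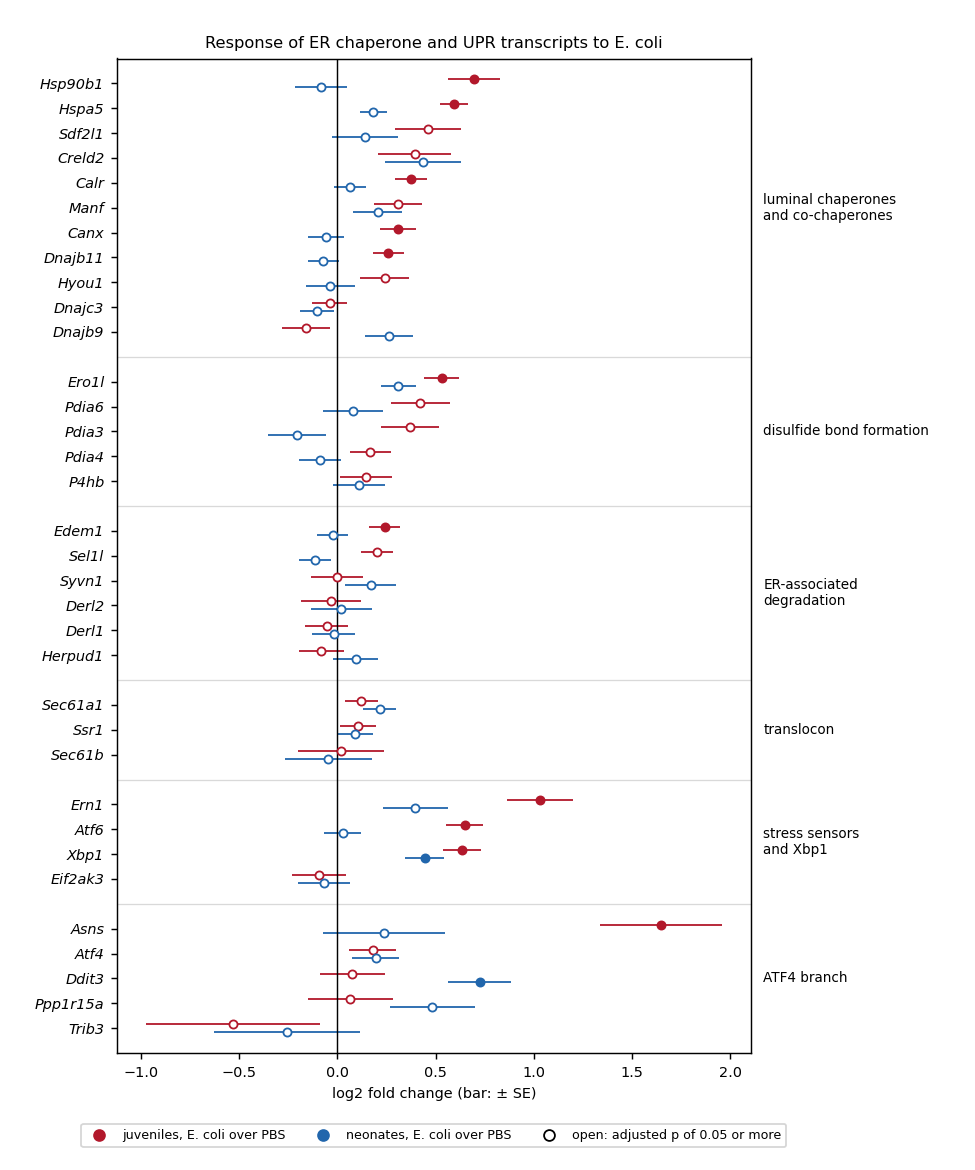
Log2 fold change (x axis) of E. coli over PBS for the 34 tested members, grouped by role, in juveniles (red) and neonates (blue), with bars of ± 1 SE from 3 libraries a group. Filled points passed an adjusted p of 0.05: 11 members in juveniles and 2, Xbp1 and Ddit3, in neonates.

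Among the 11 luminal chaperones and co-chaperones, 5 rose in juveniles and 6 did not pass the test, with a median of 0.31. Hspa5 (chr2:34771970-34777547, plus strand, GRCm38 as for all genes) encodes BiP, the main ER Hsp70 and the protein that holds the sensors inactive. Hspa5 stood at 1047, 956 and 969 CPM in E. coli juveniles, 658, 664 and 648 in PBS juveniles, 869, 862 and 768 in E. coli neonates and 752, 736 and 712 in PBS neonates. The juvenile groups did not overlap, and E. coli raised Hspa5 by 1.51-fold (log2 0.59 ± 0.07, adjusted p = 3.00e-05). Hsp90b1 (chr10:86690209-86705509, minus strand) encodes GRP94, the ER Hsp90, which folds integrins and Toll-like receptors. Its values were 1813, 1524 and 1324 CPM in E. coli juveniles, 917, 1137 and 822 in PBS juveniles, 841, 832 and 1028 in E. coli neonates and 1008, 851 and 1002 in PBS neonates. Every E. coli juvenile library was above every other library, and the juvenile change was 1.62-fold (log2 0.70 ± 0.13, adjusted p = 0.00133).

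Calreticulin (Calr) and calnexin (Canx) bind newly made glycoproteins as lectin chaperones. Calr (chr8:84841850-84846934, minus strand) was at 312, 267 and 258 CPM in E. coli juveniles, 217, 211 and 218 in PBS juveniles, 215, 221 and 226 in E. coli neonates and 198, 209 and 225 in PBS neonates. All 3 E. coli juvenile libraries exceeded the rest, with a log2 change of 0.38 ± 0.08, adjusted p = 0.00414. Canx (chr11:50293961-50325673, minus strand) was at 655, 549 and 530.4 CPM in E. coli juveniles, 459, 518 and 425 in PBS juveniles, 467, 458 and 484 in E. coli neonates and 508, 475 and 481 in PBS neonates. E. coli juveniles were again above all other libraries, by a smaller margin over PBS juvenile 2 (log2 0.31 ± 0.09, adjusted p = 0.0222). The co-chaperone Dnajb11 (chr16:22857845-22879634, plus strand), an Hsp40 partner of BiP, had 199.7, 188 and 173 CPM in E. coli juveniles, 149, 164 and 155 in PBS juveniles, 157, 149.8 and 159 in E. coli neonates and 165, 157 and 167 in PBS neonates. Its juvenile groups did not overlap (log2 0.26 ± 0.08, adjusted p = 0.0263). The Canx call was lost without E. coli juvenile 1, PBS juvenile 1 or PBS juvenile 3, and the Dnajb11 call when any 1 of 8 libraries of either age was left out, with adjusted p of up to 0.179 and 0.169 over all alternatives. Both calls were also lost in the fit to the juvenile groups alone, and the Dnajb11 call with upper-quartile scaling and without the filter.

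The 6 luminal members that did not pass ranged over log2 -0.16 to 0.46. Sdf2l1, a BiP cofactor, was at 0.46 ± 0.17, adjusted p = 0.0536, and Manf, a secreted ER stress protein, at 0.31 ± 0.12, adjusted p = 0.0771. Creld2, a secretory factor induced by ER stress, was at 0.39 ± 0.19, adjusted p = 0.140, and Hyou1, an ER nucleotide exchange factor, at 0.24 ± 0.12, adjusted p = 0.172. Dnajb9 and Dnajc3, co-chaperones of BiP, were at -0.16 ± 0.12 and -0.04 ± 0.09. Creld2 was 34.5, 31.5 and 28.3 CPM in E. coli juveniles and 20.0, 33.3 and 18.7 CPM in PBS juveniles, where PBS juvenile 2 was the high value. Without that library Creld2 was called higher.

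Of 5 disulfide bond genes, 1 rose, and the median was 0.37. Ero1l (chr14:45283087-45318771, minus strand), the oxidase that recharges protein disulfide isomerases, had 136, 139 and 122 CPM in E. coli juveniles, 90.6, 95.8 and 88.3 in PBS juveniles, 96.2, 96.4 and 109 in E. coli neonates and 77.9, 83.8 and 81.5 in PBS neonates. E. coli juveniles were above all other libraries, and the juvenile change was 1.44-fold (log2 0.53 ± 0.09, adjusted p = 0.000565). The isomerases Pdia3, Pdia4, Pdia6 and P4hb were at 0.37 ± 0.15, 0.17 ± 0.10, 0.42 ± 0.15 and 0.15 ± 0.13, with adjusted p of 0.0798, 0.258, 0.0523 and 0.453. Pdia3, an isomerase that works with calreticulin and calnexin, was 858, 756 and 608 CPM in E. coli juveniles and 536, 736 and 448 CPM in PBS juveniles. PBS juvenile 2 alone lay within the E. coli range, and without it Pdia3 and Pdia6 were called higher. Pdia3 and Pdia6 share exon sequence with counted genes on the opposite strand (Catsper2 and Atp6v1c2), so reads in the shared part could not be told apart without strand. Catsper2 had 70 counts summed over E. coli juveniles and 55 over PBS juveniles, and Atp6v1c2 had 3 and 0.

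ER-associated degradation, which returns misfolded proteins to the cytosol for the proteasome, changed in 1 of 6 tested genes, with a median of -0.02. Edem1 (chr6:108828641-108859356, plus strand), which marks misfolded glycoproteins, had 325, 324 and 289 CPM in E. coli juveniles, 269, 278 and 247 in PBS juveniles, 253, 273 and 275 in E. coli neonates and 274, 282 and 258 in PBS neonates. The juvenile groups did not overlap (log2 0.24 ± 0.08, adjusted p = 0.0348), but the call was lost when any 1 of 9 libraries of either age was left out, or with upper-quartile scaling, no filter or the juvenile groups alone, with adjusted p of up to 0.164 over all alternatives. Sel1l, a scaffold of the HRD1 ligase complex, was at 0.20 ± 0.08, adjusted p = 0.0807. Syvn1 (HRD1), Derl1, Derl2 and Herpud1 were at 0.00 ± 0.13, -0.05 ± 0.11, -0.03 ± 0.15 and -0.08 ± 0.11. Syvn1 shares exon sequence with Mrpl49 on the opposite strand, which fell in juveniles (log2 -0.45, adjusted p = 0.0412). Derl3 had too few reads to test, with 5 counts summed over E. coli juveniles, 2 over PBS juveniles, 6 over E. coli neonates and 7 over PBS neonates. Of the 3 translocon genes, through which proteins enter the ER, 0 were called by edgeR or DESeq2 and 0 had an unadjusted p under 0.05 by either, while limma voom called 1. Sec61a1, Sec61b and Ssr1 were at 0.12 ± 0.08, 0.02 ± 0.22 and 0.10 ± 0.09. Sec61b was 59.0, 51.8 and 50.6 CPM in E. coli juveniles and 40.5, 82.9 and 36.5 CPM in PBS juveniles, and without PBS juvenile 2 it was called higher.

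The stress sensors and Xbp1 had the highest median of the roles, 0.64, with 3 of 4 raised. Ern1 (chr11:106394650-106487852, minus strand), the kinase and nuclease that splices Xbp1, had 49.0, 52.3 and 45.2 CPM in E. coli juveniles, 23.9, 20.1 and 27.6 in PBS juveniles, 40.1, 46.9 and 43.9 in E. coli neonates and 23.5, 38.8 and 37.1 in PBS neonates. E. coli juveniles exceeded PBS juveniles by 2.05-fold (log2 1.03 ± 0.17, adjusted p = 0.000407) and overlapped E. coli neonates. Atf6 (chr1:170704674-170867771, minus strand), the sensor that becomes a transcription factor, had 149, 171 and 143 CPM in E. coli juveniles, 105, 88.3 and 102 in PBS juveniles, 122, 128 and 126 in E. coli neonates and 119, 127 and 123 in PBS neonates. E. coli juveniles were above all other libraries and PBS juveniles below all other libraries, and the juvenile change was 1.57-fold (log2 0.65 ± 0.09, adjusted p = 0.000148). Xbp1 (chr11:5520659-5525893, plus strand) had 113, 110.3 and 99.1 CPM in E. coli juveniles, 74.5, 60.3 and 73.0 in PBS juveniles, 91.4, 89.0 and 93.0 in E. coli neonates and 68.1, 64.2 and 68.6 in PBS neonates. Its E. coli libraries were above the PBS libraries of the same age at both ages, with a juvenile change of 1.55-fold (log2 0.63 ± 0.10, adjusted p = 0.000275). Eif2ak3 (chr6:70844515-70905245, plus strand), the PERK gene, had 27.9, 32.5 and 38.0 CPM in E. coli juveniles, 36.3, 30.2 and 38.4 in PBS juveniles, 36.3, 43.1 and 41.0 in E. coli neonates and 40.0, 46.4 and 39.7 in PBS neonates. The juvenile groups overlapped, and the change was -0.09 ± 0.14, adjusted p = 0.661.

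In the ATF4 branch 1 of 5 tested genes rose, with a median of 0.08. Asns (chr6:7675169-7693254, minus strand), asparagine synthetase and a standard ATF4 target, had 10.8, 8.29 and 5.97 CPM in E. coli juveniles, 2.02, 2.80 and 3.19 in PBS juveniles, 4.21, 3.62 and 5.04 in E. coli neonates and 3.27, 2.78 and 4.90 in PBS neonates. These rest on 47 to 86 counts per E. coli juvenile library and 14 to 20 per PBS juvenile library. The juvenile groups did not overlap and differed by 3.13-fold (log2 1.65 ± 0.31, adjusted p = 0.00126). Atf4 (chr15:80255184-80257541, plus strand) itself had 105, 118 and 129.9 CPM in E. coli juveniles, 90.5, 124 and 97.4 in PBS juveniles, 121, 116 and 105 in E. coli neonates and 93.2, 106 and 99.3 in PBS neonates. Its juvenile groups overlapped at 0.18 ± 0.12, adjusted p = 0.288, and without PBS juvenile 2 it was called higher. Ddit3, Ppp1r15a (GADD34, which reverses eIF2α phosphorylation) and Trib3, a pseudokinase target of CHOP, were at 0.08 ± 0.17, 0.07 ± 0.22 and -0.53 ± 0.44, with adjusted p of 0.777, 0.859 and 0.412. Chac1, a glutathione-degrading enzyme, had 3 counts summed over E. coli juveniles, 1 over PBS juveniles, 8 over E. coli neonates and 0 over PBS neonates, and was not tested.

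**Figure D2:**
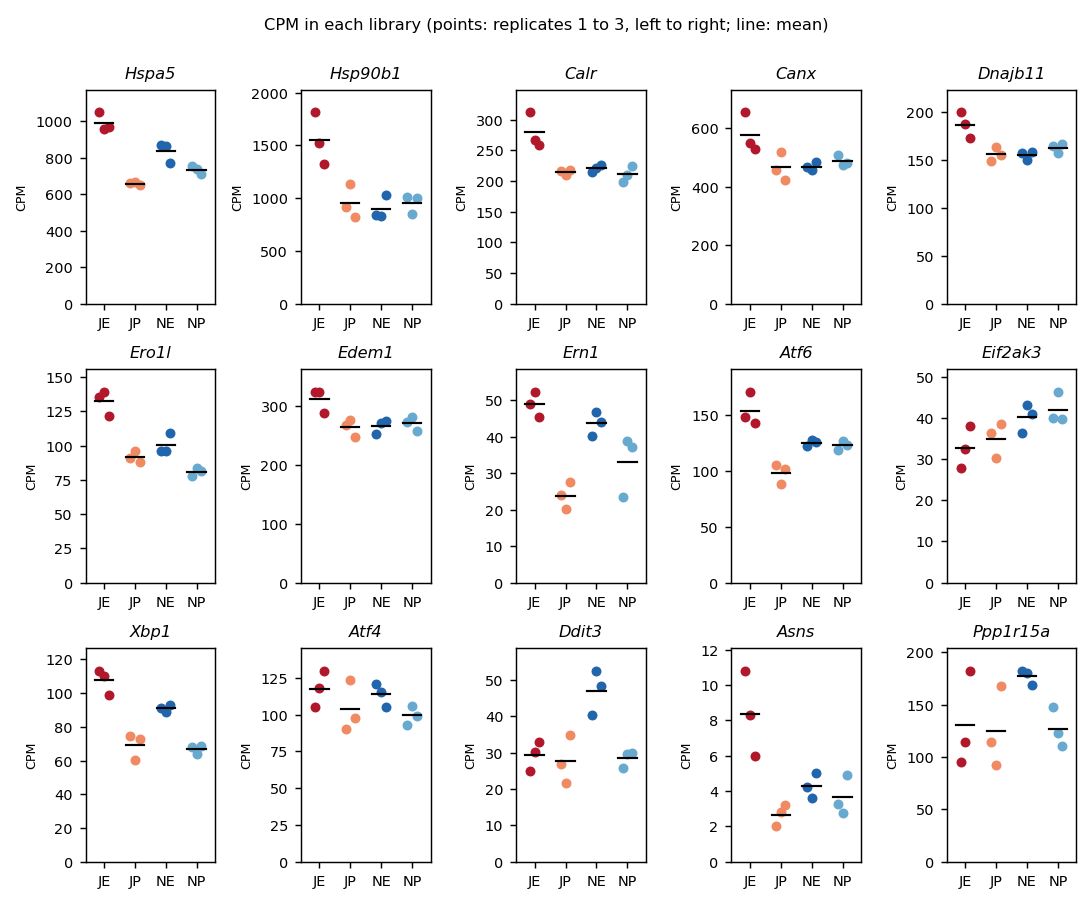
CPM (y axes, each from 0) of 15 members in every library, with E. coli juveniles (JE), PBS juveniles (JP), E. coli neonates (NE) and PBS neonates (NP) along the x axis. Each point is 1 library and lines are group means. The JE points of Hspa5, Hsp90b1, Calr, Canx, Dnajb11, Ero1l, Edem1, Atf6, Xbp1 and Asns lie above every other library of the same gene.

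In neonates, E. coli raised 2 of 34 members, Xbp1 and Ddit3, and lowered 0. That is 5.88% raised, against 1.05% of all genes raised and 0.145% lowered, 1.19% in all. Unadjusted p was under 0.05 for 9 members that were higher and 0 that were lower, and DESeq2 and limma voom each called 2 up and 0 down. Over all 11062 genes DESeq2 called 188 up and 50 down, and limma voom 215 up and 97 down. The median log2 change was 0.09 over the members and -0.00 over all genes. Libraries did not overlap in 9 members that were higher and 3 that were lower, against 11.2% and 10.6% of all genes. Xbp1 changed by 1.36-fold (log2 0.44 ± 0.10, adjusted p = 0.0363). Ddit3 (chr10:127290774-127296288, plus strand), the gene of the stress factor CHOP, had 25.02, 30.1 and 32.8 CPM in E. coli juveniles, 26.8, 21.8 and 34.8 in PBS juveniles, 40.2, 52.5 and 48.4 in E. coli neonates and 25.7, 29.7 and 29.9 in PBS neonates. E. coli neonates were above every other library, a 1.65-fold change (log2 0.72 ± 0.16, adjusted p = 0.0378). Ddit3 overlaps Mars on the opposite strand, and Mars was at log2 0.26 with an adjusted p of 0.509. Neither call was kept under every alternative: 0 members were called without E. coli juvenile 2, E. coli neonate 2 or 3 or any 1 PBS neonate library, and 1 without PBS juvenile 1 or E. coli neonate 1.

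Among the other neonatal sensors and ATF4 genes, Ern1 was at a log2 fold change of 0.40 ± 0.16, adjusted p = 0.337, Atf6 at 0.03 ± 0.09, adjusted p = 0.952 and Eif2ak3 at -0.07 ± 0.13, adjusted p = 0.911. Atf4 was at 0.20 ± 0.12, adjusted p = 0.578 and Asns at 0.24 ± 0.31, adjusted p = 0.854. Ppp1r15a, the phosphatase subunit, was 183, 181 and 169 CPM in E. coli neonates and 148, 123 and 110.1 CPM in PBS neonates. Those groups did not overlap, and the change of 0.48 ± 0.22, adjusted p = 0.389 did not pass. In the fit to the neonatal groups alone Ppp1r15a was called higher (edgeR, adjusted p = 0.0169). The 11 luminal chaperones had a median of 0.06, and edgeR, DESeq2 and limma voom each called 0, with 3 at an unadjusted p under 0.05. Hspa5 was higher in all 3 E. coli neonate libraries than in all 3 PBS neonate libraries, at 0.18 ± 0.07, adjusted p = 0.293. Hsp90b1, Calr and Canx were at -0.08 ± 0.13, 0.06 ± 0.08 and -0.06 ± 0.09 in neonates, and their libraries overlapped. Ero1l was at 0.31 ± 0.09, adjusted p = 0.140, without overlap of the libraries, and Pdia3 and Sel1l were at -0.20 ± 0.15 and -0.11 ± 0.08, lower in every E. coli library. The 6 degradation genes had a median of 0.00, and Creld2 and Dnajb9 were at 0.44 ± 0.20 and 0.26 ± 0.12.

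The difference between the responses was tested directly, as the juvenile change minus the neonatal change. It was positive and passed in 3 of 34 members, Atf6, Hsp90b1 and Hspa5, and negative in 0, against 5.05% positive and 1.94% negative among all genes. The log2 fold change of Atf6 was 0.65 in juveniles and 0.03 in neonates, a difference of 0.62 ± 0.13, adjusted p = 0.0112. The log2 fold change of Hsp90b1 was 0.70 in juveniles and -0.08 in neonates, a difference of 0.78 ± 0.19, adjusted p = 0.0205. The log2 fold change of Hspa5 was 0.59 in juveniles and 0.18 in neonates, a difference of 0.41 ± 0.10, adjusted p = 0.0229. Hspa5 and Hsp90b1 are known targets of the factor released from ATF6. Whether that factor had a part in these differences was not tested. Unadjusted p was under 0.05 for 11 members with a larger juvenile change and 2 with a larger neonatal change. The 2 at the negative end were Dnajb9 (-0.42 ± 0.17, adjusted p = 0.161) and Ddit3 (-0.65 ± 0.23, adjusted p = 0.107). Asns (1.41 ± 0.44, adjusted p = 0.0688) and Ern1 (0.63 ± 0.23, adjusted p = 0.118) had positive differences that did not pass, and Xbp1 was at 0.19 ± 0.14, adjusted p = 0.463. DESeq2 called 3 and 0, and limma voom 10 and 2. Over all 11062 genes DESeq2 called 697 positive and 283 negative, and limma voom 1376 and 924. Of the 3, only Atf6 kept its call under every alternative run. Hspa5 lost its call without E. coli juvenile 1, PBS juvenile 1 or any 1 neonatal library. Hsp90b1 lost its call without E. coli juvenile 1, PBS juvenile 1, E. coli neonate 1 or 2 or PBS neonate 1 or 3. In all, 1 member passed without E. coli juvenile 1, PBS juvenile 1, E. coli neonate 1 or 2 or PBS neonate 3. Without E. coli juvenile 3, 6 passed as positive and 1, Dnajb9, as negative, and without PBS juvenile 2, 7 passed as positive and 1, Ddit3, as negative. Over all genes these fits gave 761 positive and 402 negative of 11236, and 1006 positive and 547 negative of 11290.

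After PBS, juvenile cells differed from neonatal cells in 0 of 34 members by edgeR in either direction, against 1.75% of all genes higher in juveniles and 2.32% lower, 4.08% in all. Unadjusted p was under 0.05 for 1 member higher and 4 lower, DESeq2 called 0 higher and 1 lower (Atf6), and limma voom called 0. Over all 11062 genes DESeq2 called 335 higher and 394 lower, and limma voom 402 and 525. Libraries did not overlap in 3 members that were higher (Dnajb9, Creld2 and Ero1l) and 4 that were lower (Hspa5, Atf6, Eif2ak3 and Trib3), against 10.2% and 9.82% of all genes. Atf6 averaged 98.5 ± 8.98 CPM in PBS juveniles and 123 ± 4.36 CPM in PBS neonates (SD, n = 3 each), at -0.32 ± 0.09, adjusted p = 0.0696. Hspa5 averaged 657 ± 8.47 CPM in PBS juveniles and 733 ± 20.3 CPM in PBS neonates, at -0.16 ± 0.07, adjusted p = 0.242. Ern1 averaged 23.9 ± 3.74 CPM in PBS juveniles and 33.1 ± 8.37 CPM in PBS neonates, where PBS neonate 1 was low (-0.47 ± 0.17, adjusted p = 0.148). Without PBS neonate 1, Ern1 was called lower in PBS juveniles.

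**Figure D3:**
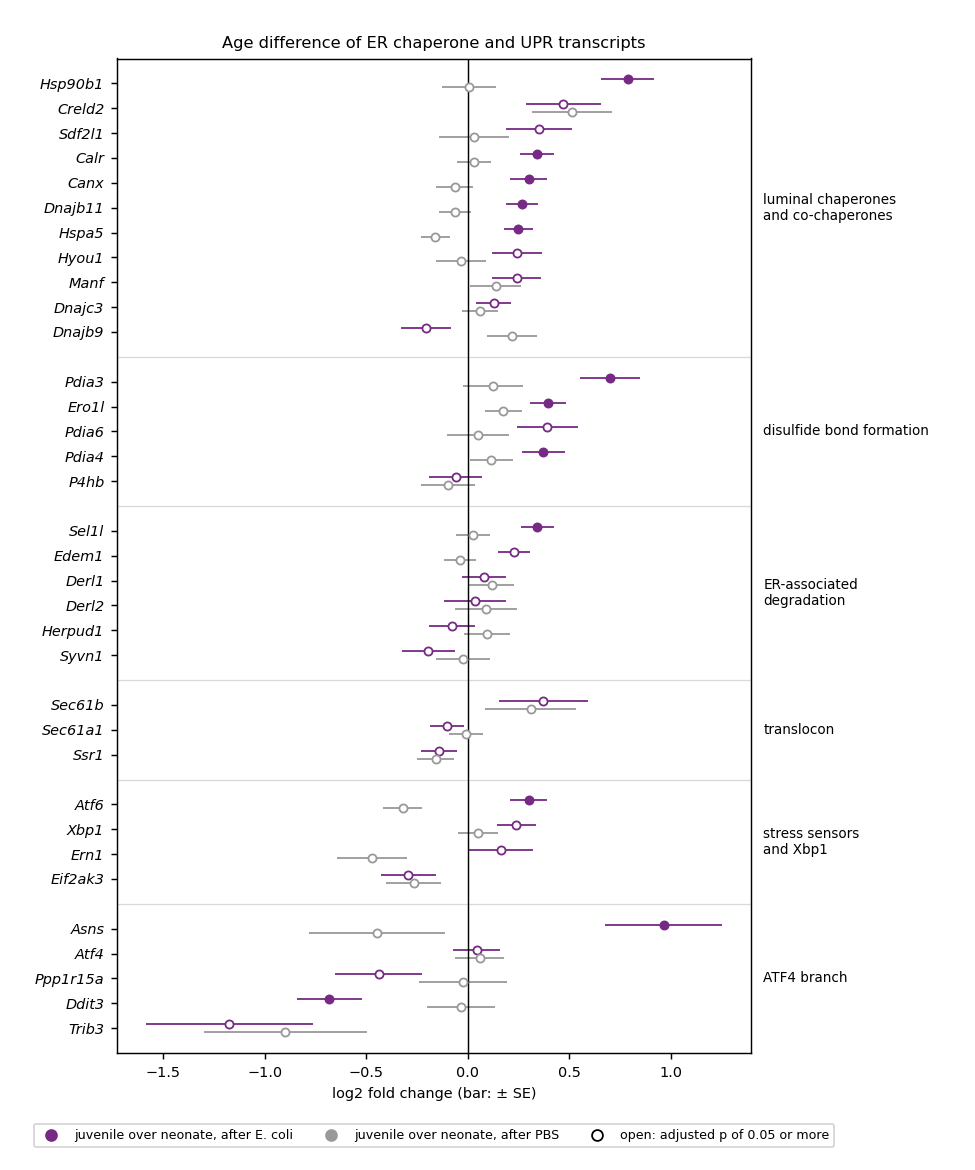
Log2 fold change (x axis) of juveniles over neonates for the 34 tested members by role, after E. coli (purple) and after PBS (grey), with bars of ± 1 SE from 3 libraries a group. Filled points passed an adjusted p of 0.05: 12 members after E. coli and 0 after PBS.

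After E. coli, 11 of 34 members were higher in juveniles than in neonates and 1, Ddit3, was lower, against 11.3% and 6.42% of all genes, 17.8% in all. That is 32.4% of members higher and 2.94% lower, with a median log2 difference of 0.24 over members and -0.02 over all genes. Libraries did not overlap in 18 members that were higher and 3 that were lower, against 20.5% and 19.4% of all genes. By limma voom 17 members were higher and 4 lower, against 2091 and 1719 of all 11062 genes. The 11 by edgeR were Hspa5, Hsp90b1, Dnajb11, Calr, Canx, Pdia3, Pdia4, Ero1l, Sel1l, Atf6 and Asns. Hsp90b1 averaged 1554 ± 246 CPM in E. coli juveniles and 900.4 ± 111 CPM in E. coli neonates (0.79 ± 0.13, adjusted p = 0.000623). Pdia3 averaged 741 ± 126 CPM in E. coli juveniles and 456 ± 29.3 CPM in E. coli neonates (0.70 ± 0.15, adjusted p = 0.00387). Ddit3 averaged 29.3 ± 3.94 CPM in E. coli juveniles and 47.0 ± 6.25 CPM in E. coli neonates (-0.68 ± 0.16, adjusted p = 0.00795), a difference opposite in sign to those of Hsp90b1 and Pdia3. Mars, which overlaps Ddit3, differed by log2 -0.05 between these groups. Trib3 ranged over 0.755 to 1.52 CPM in E. coli juveniles and 2.16 to 2.68 in E. coli neonates, on few reads (log2 -1.17 ± 0.41, adjusted p = 0.0630). The other called members differed by log2 0.25 (Hspa5) to 0.96 (Asns). This comparison shares its E. coli juvenile libraries with the juvenile response and its E. coli neonate libraries with the neonatal response. Leaving out E. coli juvenile 1 left 3 members higher, E. coli juvenile 2 left 6, E. coli neonate 1 or 2 left 5 and E. coli neonate 3 left 7, while Hsp90b1, Pdia3, Ero1l and Ddit3 kept their calls under every alternative run.

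Of the 34 tested members, 21 had their highest group mean in E. coli juveniles, 4 in PBS juveniles, 7 in E. coli neonates and 2 in PBS neonates. Summed over the 11 luminal chaperones, the libraries stood at 4625, 4068 and 3834 CPM in E. coli juveniles, 2948, 3317 and 2810.1 in PBS juveniles, 3086, 3056 and 3223 in E. coli neonates and 3192, 2938 and 3118 in PBS neonates, a sum in which genes with more reads weigh more. The 3 E. coli juvenile libraries were above all others. The mitosis and G2/M sums of the same libraries, in the same order within a group, were 5446, 4693 and 3646 CPM in E. coli juveniles, 1544, 2716 and 1507 in PBS juveniles, 3397, 3399 and 3668 in E. coli neonates and 4660.4, 3593 and 3896 in PBS neonates. In all 4 groups the library with the highest mitosis sum also had the highest chaperone sum: E. coli juvenile 1, PBS juvenile 2, E. coli neonate 3 and PBS neonate 1. Between groups, the neonatal mitosis sums overlapped those of E. coli juveniles, and the neonatal chaperone sums lay within the PBS juvenile range. Among E. coli neonates the mitosis overlap rested on 1 library, E. coli neonate 3, at 3668 CPM against 3646 in E. coli juvenile 3. The part of cell division in the chaperone levels was not tested. E. coli juvenile 1 was the highest of its group in 19 of 34 members and E. coli juvenile 3 the lowest in 23. The degradation genes summed to 602 to 648 CPM in E. coli juveniles, 552 to 583 in PBS juveniles, 537 to 574 in E. coli neonates and 545 to 586 in PBS neonates, and the ATF4 branch to 237 to 352 CPM in E. coli juveniles, 235 to 306 in PBS juveniles, 330.1 to 355 in E. coli neonates and 246 to 274 in PBS neonates. The ATF4 branch sums of E. coli neonates and E. coli juveniles overlapped.

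**Figure D4:**
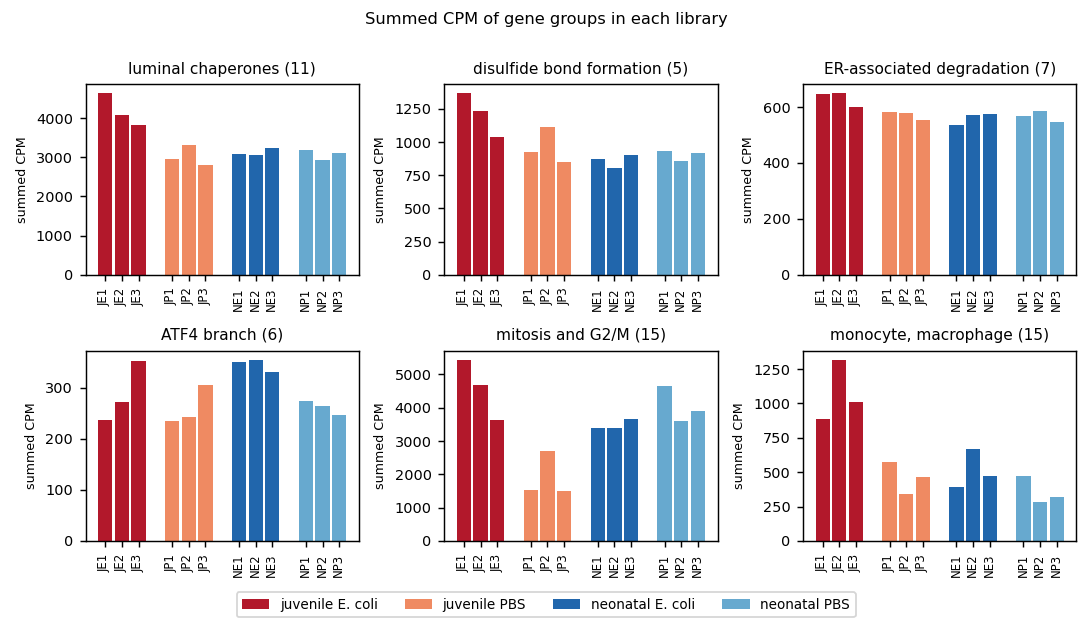
Summed CPM (y axes, each from 0) of luminal chaperones (11 genes), disulfide bond genes (5), degradation genes (7), the ATF4 branch (6), mitosis and G2/M genes (15) and monocyte and macrophage genes (15), 1 bar per library in E. coli juveniles, PBS juveniles, E. coli neonates and PBS neonates. Luminal chaperone sums of E. coli juveniles, 3834 to 4625 CPM, are above all other libraries.

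The promoter elements were set beside the values without a test. They were brought forward because several called genes carry them, so the counts given here cannot test a link between element and change. Of the 8 tested members with an ERSE, 4 rose in juveniles (Hspa5, Hsp90b1, Calr and Canx) with a median log2 change of 0.38, and of the 21 tested members with a promoter and no match, 6 rose with a median of 0.17. The other ERSE members, Creld2, Dnajc3, Pdia6 and Syvn1, did not pass. In neonates 0 of the 8 and 2 of the 21 were called, with medians of 0.07 and 0.09, and the response difference passed in 2 of the 8 and 0 of the 21. Atf6, Derl1, Sec61a1, Manf and Hyou1 had no promoter in the table and are in neither set, so Atf6, the other member whose response difference passed, is not counted. Herpud1, which holds both an ERSE-II and a CARE, was at -0.08 ± 0.11 in juveniles and 0.09 ± 0.11 in neonates, while Asns, which holds a CARE, was at 1.65 ± 0.31 and 0.24 ± 0.31.

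Beyond the members, 120 further genes of the pathway were tested, from 5 lists. In juveniles 18 rose and 5 fell, which is 15.0% and 4.17% beside 15.4% and 9.42% of all genes. Of 28 further folding genes 4 rose and 1 fell, with a median of 0.06: Hspa13, an Hsp70-family protein (0.73 ± 0.16, adjusted p = 0.00317), Tmx3, a membrane disulfide isomerase (0.40 ± 0.10, adjusted p = 0.00710), and Dnajc1 (0.26 ± 0.08, adjusted p = 0.0293) rose, and Mesdc2, a chaperone of LDL receptors, fell (-0.44 ± 0.11, adjusted p = 0.0112). Of 28 translocation, signal peptidase and glycosylation genes 1 rose, Srp54a of the signal recognition particle (0.61 ± 0.21, adjusted p = 0.0464), and 2 fell, the signal peptidase Sec11a (-0.51 ± 0.11, adjusted p = 0.00375) and the oligosaccharyltransferase subunit Ddost (-0.41 ± 0.13, adjusted p = 0.0315). Of 18 further degradation genes edgeR and DESeq2 called 0, with 2 at an unadjusted p under 0.05 by edgeR, and limma voom called 2.

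Of 23 further UPR regulators 7 rose and 1 fell. Eif2ak2, the eIF2α kinase PKR and an interferon target, rose by log2 1.11 ± 0.14, adjusted p = 6.41e-05. Creb3l2, a membrane-bound relative of ATF6, rose by 0.91 ± 0.14, adjusted p = 0.000202, and Sec24d, a COPII coat subunit, by 0.98 ± 0.16, adjusted p = 0.000380. Wfs1, an ER membrane protein, rose by 1.08 ± 0.26, adjusted p = 0.00738. The 1 that fell was the apoptosis gene Bbc3 (-1.37 ± 0.43, adjusted p = 0.0293), named after its value was seen. Of 23 further ATF4 targets 6 rose and 1 fell, with a median of 0.31. Jdp2 rose by 2.10 ± 0.36, adjusted p = 0.000652, Cebpb by 1.54 ± 0.27, adjusted p = 0.000787, the amino acid carrier Slc3a2 by 0.56 ± 0.11, adjusted p = 0.00171 and the mTORC1 inhibitor Ddit4 by 1.03 ± 0.21, adjusted p = 0.00279. The 1 that fell was the serine synthesis gene Psph (-0.34 ± 0.11, adjusted p = 0.0376), also named after its value was seen. Cebpb is also abundant in myeloid cells, whose marker sums were 887 to 1319 CPM in E. coli juveniles and 345 to 572 CPM in PBS juveniles, and the part of those cells was not tested.

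In neonates edgeR and DESeq2 called 0 of these 120 genes in either direction, with 12 at an unadjusted p under 0.05 by edgeR, and limma voom called 1. The difference of responses was called in 4, all positive and all UPR regulators, which is 3.33% beside 5.05% of all genes: Eif2ak2 (1.39 ± 0.21, adjusted p = 0.00154), Golgb1, a Golgi tether (0.54 ± 0.12, adjusted p = 0.0171), Creb3l2 (0.75 ± 0.19, adjusted p = 0.0300) and Sec24d (0.82 ± 0.23, adjusted p = 0.0418). After PBS 1 differed between ages, Stc2, a secreted glycoprotein and ATF4 target, lower in juveniles (-1.51 ± 0.24, adjusted p = 0.00302). After E. coli 18 were higher in juveniles (15.0%, beside 11.3% of all genes) and 5 lower (4.17%, beside 6.42%), among them Eif2ak2 (1.36 ± 0.15, adjusted p = 1.26e-05), Sec24d (0.94 ± 0.15, adjusted p = 0.000534) and Hspa13 (0.87 ± 0.15, adjusted p = 0.00104) higher, and Stc2 (-1.46 ± 0.23, adjusted p = 0.000330) lower.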

How the data were processed

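RNA of sorted lung CD4+ T cells was measured in 12 libraries, 3 in each of 4 groups. Per the labels' protocols, the cDNA amplification kit keeps no strand information, and library preparation included PCR. Per the submitters' processing notes, CASAVA 1.8.4 and STAR were used with GRCm38 (mm10). The deposited values are whole-number counts per gene symbol, not normalized by the authors. How reads were assigned to genes is not given in the sources used. Reads from exon stretches shared with another counted gene cannot be told apart, which touches 7 members (Manf, Pdia3, Pdia6, Syvn1, Derl2, Ddit3 and Ppp1r15a). Floors cover counting error only.

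The filter was filterByExpr with a minimum count of 10 and a minimum total of 15, and 11062 of 19434 genes with 99.9% of counts passed it. The main test was the quasi-likelihood F test of edgeR 4.0.16 (R 4.3.3), fitted to the 4 group means over 12 libraries without covariates, with TMM scaling and Benjamini-Hochberg adjustment over 11062 genes at 0.05. Adjusted p-values come from edgeR unless another tool is named. Standard errors are the log2 fold change over the square root of F. The 5 contrasts were E. coli against PBS at each age, their difference, and juveniles against neonates after PBS and after E. coli. Alternatives were scaling by RLE or by the upper quartile, the tools DESeq2 1.42.0 and limma 3.58.1 (voom with sample weights), 2 other filters, fits to the compared groups alone, the replicate number as a block, and libraries left out. Scripts were tested on simulated data. Gene coordinates are GRCm38 from GENCODE, and promoters are from RefSeq, whose starts differ from those of GENCODE for some members.

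Values in every library are given for members called in juveniles, members called where 5 or fewer were, the 3 sensors, Xbp1, Atf4, Hspa5 and Ddit3. Juvenile values of Creld2, Pdia3 and Sec61b and neonatal values of Ppp1r15a are given outside this rule. At most 4 called genes of smallest p are named per wider list. The members, lists and rules were chosen with earlier results of these data known. Tables and figures used Python 3.11.15 and matplotlib 3.10.9.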

Additional observations from a re-analysis of the deposited data

Results flagged for a closer look

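In all, 3 of 34 members (8.82%) were flagged because their response to E. coli differed between ages by the interaction term of edgeR. Among all genes 5.05% were positive and 1.94% negative in that test. Atf6 had a juvenile change minus neonatal change of 0.62 ± 0.13, adjusted p = 0.0112 on the log2 scale, and all 3 E. coli juvenile libraries were above the other 9. Hsp90b1 had 0.78 ± 0.19, adjusted p = 0.0205, and Hspa5 had 0.41 ± 0.10, adjusted p = 0.0229. Hsp90b1 lost its call in 6 of 20 alternatives and Hspa5 in 8 of 20, while Atf6 kept its call in all. For Atf6 the PBS juvenile libraries were also the lowest of the 12, at 105, 88.3 and 102 CPM, against 119, 127 and 123 CPM in PBS neonates.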

How the results depend on the processing

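No called result changed direction under any alternative run. Calls held in every alternative for 8 of 11 members raised in juveniles (Hspa5, Hsp90b1, Calr, Ero1l, Ern1, Atf6, Xbp1 and Asns), 0 of 2 in neonates, 1 of 3 response differences (Atf6) and 4 of 12 age differences after E. coli. The causes of the other changes were not tested.

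With limma voom, members called up were 20 in juveniles, 10 for the response difference (2 down) and 17 for age after E. coli (4 down), and medians were 0.28 in juveniles, 0.24 for the difference and -0.022 for age after PBS, where TMM and edgeR gave 0.016. Without PBS neonate 1 and PBS juvenile 2 together, 17 members rose in juveniles (median 0.29), 1 in neonates and 6 for the difference, and 1 was lower in juveniles after PBS. DESeq2 also called 1 lower after PBS. Upper-quartile scaling gave medians of 0.16 in juveniles and 0.084 for the difference, lost the calls of Dnajb11 and Edem1 in juveniles and of Dnajb11, Canx and Atf6 for age after E. coli, and gave 1468 genes up and 1415 down in juveniles over all genes, against 1705 and 1042 with TMM. Fits to the compared groups alone lost Dnajb11, Canx and Edem1 in juveniles. They gained Ppp1r15a in neonates and Creld2, Pdia6, Edem1 and Sec61b for age after E. coli. Over all genes these fits called 230 up and 90 down of 10638 in neonates, and 1493 up and 927 down of 10871 for age after E. coli. No filter lost Dnajb11 and Edem1 in juveniles and Dnajb11 for age after E. coli. The replicate block called 1 member in neonates in place of 2, and Atf6 was no longer called for age after E. coli. Same-numbered libraries did not deviate together (correlations of -0.19 to 0.21), and 4 of 12 correlated best with their own number, so numbers were not used as pairs. Over the 120 wider genes, limma voom called 29 up and 12 down in juveniles and 20 up and 6 down for the difference, where DESeq2 called 6 up and 1 down.

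Leaving out each library in turn gave 8 to 16 members up in juveniles (0 down, medians 0.18 to 0.29), 0 to 2 up in neonates (medians 0.05 to 0.12), 1 to 7 up and 0 to 1 down for the difference (medians 0.080 to 0.23), 0 up and 0 to 1 down for age after PBS (medians -0.0015 to 0.056), and 3 to 16 up and 1 to 3 down for age after E. coli (medians 0.18 to 0.29). Counts of a few reads, as for Chac1, Derl3 and Trib3, limit what could be called.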
